A study of Sus scrofa with 12 samples.

Results

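Of the 10 genes chosen by name to represent the muscle Z-disc, 9 were found among the 23271 genes of the deposited table: the myozenins MYOZ1, MYOZ2 and MYOZ3, the alpha-actinins ACTN2 and ACTN3, the titin cap TCAP, the muscle LIM protein CSRP3, and the ankyrin repeat genes ANKRD1 and ANKRD2. LDB3 was not found under that name and is left out. A row without a symbol is described in the deposited table as LIM domain binding 3, and its values are given beside the 9 genes without being counted among them. Poly(A) RNA of longissimus dorsi (a long muscle beside the spine) was sequenced in 6 libraries of Laiwu pigs, an indigenous breed from China with much intramuscular fat, and 6 libraries of Yorkshire pigs, a lean Western breed, all described as of equal weight. No age, sex or treatment is given for either breed. Nothing in the labels ties each library to its own animal, and p-values therefore reflect only how far these samples spread, which may be technical.

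The Z-disc is the plate at each end of a sarcomere, the contractile unit of a muscle fibre, where actin filaments of neighbouring sarcomeres are cross-linked by alpha-actinin and where titin is anchored. Myozenins, also called calsarcins, bind alpha-actinin and hold the phosphatase calcineurin at the Z-disc. In mouse and human muscle ACTN3, MYOZ1 and MYOZ3 belong mainly to fast fibres, and MYOZ2, CSRP3 and ANKRD2 mainly to slow fibres. MYOZ2 and CSRP3 are also genes of the heart. ANKRD1, ANKRD2, CSRP3 and TCAP are known as parts of the titin-linked machinery that senses stretch, and in mouse muscle ANKRD1 and ANKRD2 are induced by stretch or injury.

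Each library held 54961358 to 67285809 counts, and the 9 genes had from 163 counts (CSRP3 in Laiwu 4) to 831047 counts (ACTN3 in Laiwu 1), so counting error was small beside the spread between libraries. Levels are given as FPKM, which scales each count by the length of its gene and by the depth of its library. The markers of skeletal muscle fibres that could be looked up (5 of 7, with TTN and MB not analysed here) summed to 47361 to 67530 FPKM in Laiwu and 48047 to 68392 FPKM in Yorkshire. Yorkshire 5 stood apart in that its deviations followed gene length across genes (Spearman's rho of -0.429, against -0.171 to 0.236 in the other libraries). Several values that it moved are also given without it.

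None of the 9 genes differed between Laiwu and Yorkshire muscle beyond the spread between libraries. MYOZ1, ACTN3, ACTN2 and MYOZ3 were nearly level across all 12 libraries, the highest being 1.27, 1.38, 1.52 and 1.53 times the lowest. ANKRD1, ANKRD2 and CSRP3 varied more than 20-fold within at least 1 breed, and with TCAP they were highest in the same 4 libraries, Laiwu 3, Laiwu 5, Yorkshire 3 and Yorkshire 5. MYOZ2, CSRP3 and ANKRD2 were lowest in the same 3 libraries, Laiwu 1, Laiwu 4 and Yorkshire 2, in which the slow myosin heavy chain MYH7 was also lowest. These 3 libraries had the 3 highest sums of skeletal fibre markers, at 66191 and 67530 FPKM in Laiwu 1 and 4 and 68392 FPKM in Yorkshire 2, with the next at 64940 FPKM. The sums are mostly ACTA1, and MYH7, on the same list, went the other way. NEB, also listed, was at 515.0 and 497.8 FPKM in Laiwu 1 and 4 and 484.1 FPKM in Yorkshire 2, against a highest of 694.5 FPKM in Laiwu 3. The same 3 libraries also had the 3 highest shares of counts in their 10 most abundant genes, at 31.4%, 31.6% and 32.6%, with the next at 30.99%. The part of these measures in the result was not tested.

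**Figure D1:**
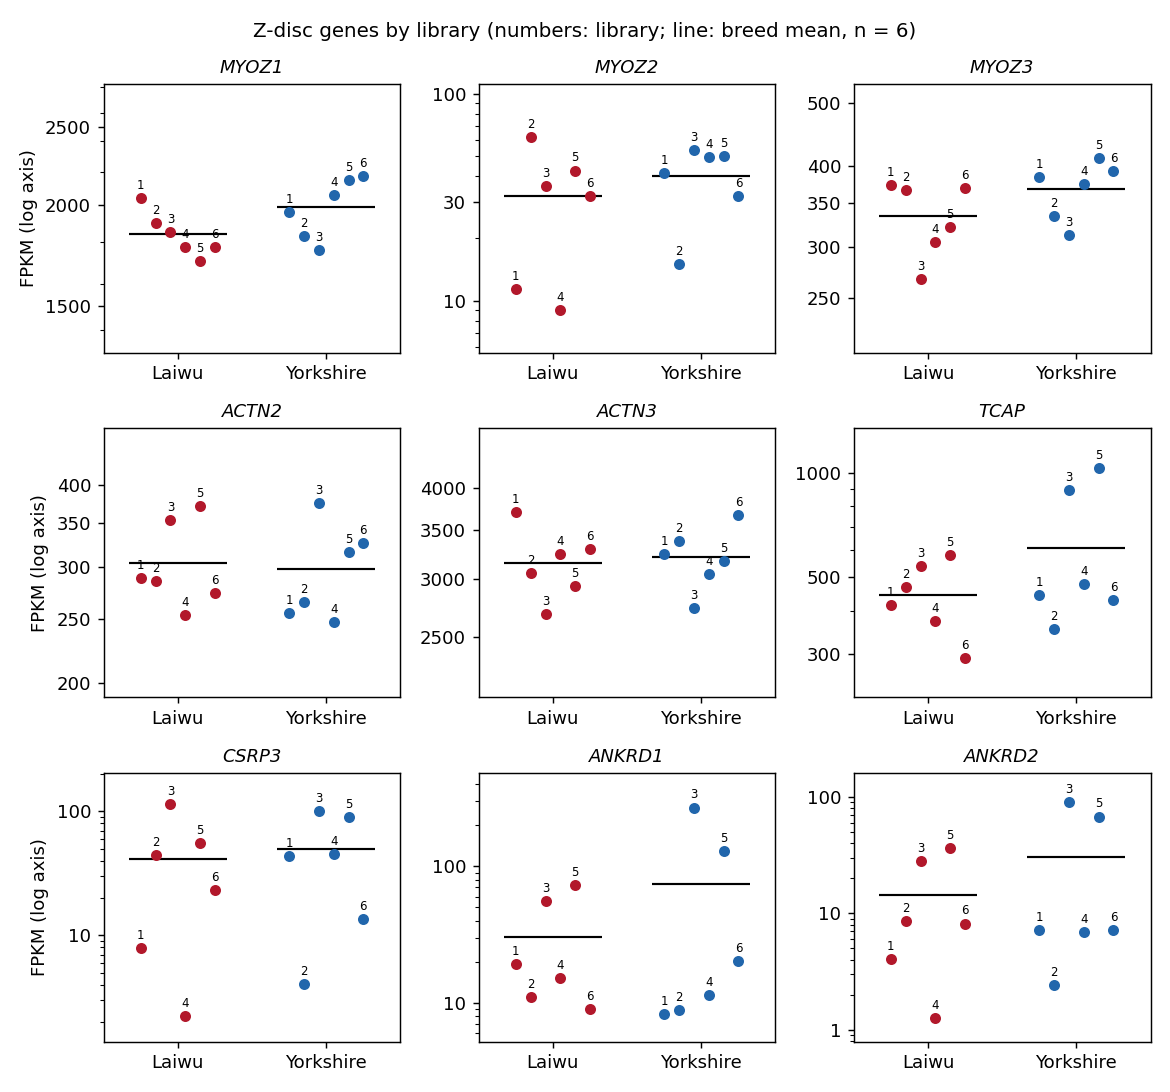
FPKM (log axis) of the 9 Z-disc genes in each of 6 Laiwu and 6 Yorkshire libraries, with library numbers beside the points and a line at the breed mean. The breeds overlap for every gene, and the points spread widely for ANKRD1, ANKRD2, CSRP3 and MYOZ2.

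In edgeR's quasi-likelihood test (Benjamini-Hochberg adjustment over all tested genes), 0 of the 9 genes and 0 of the 11205 tested genes (0%) passed an adjusted p under 0.05, with 0 of the 9 and 498 of all tested genes at an unadjusted p under 0.05. DESeq2 also called 0 of the 9, and 1 gene in all (0.00893%). All 9 genes passed the filter for testing. The log2 fold change, Laiwu over Yorkshire, was above 0 for 1 gene and below 0 for 8, with a median of -0.29. Of all tested genes 50.3% were below 0, and their median was -0.0013. Several of the 9 genes rose and fell together across libraries, so the 8 are not separate observations. The breeds overlapped in FPKM for all 9 genes, and 0.178% of all tested genes had breeds that did not overlap. In bulk tissue a smaller share of 1 fibre type and less RNA of a gene per fibre cannot be told apart.

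**Figure D2:**
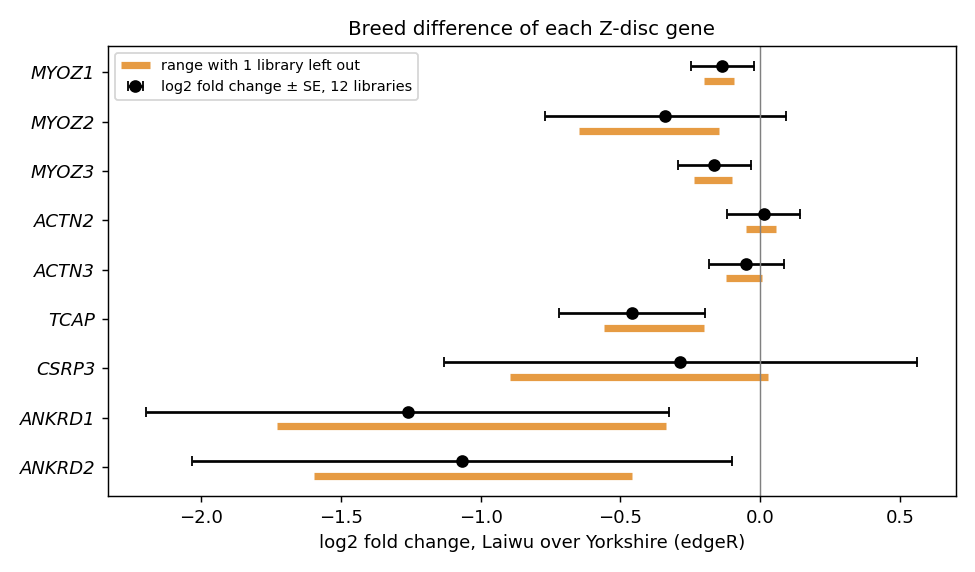
Log2 fold change of each gene, Laiwu over Yorkshire, as fitted by edgeR on 12 libraries (point, with its SE) and the range of that value when 1 library is left out (orange bar). ANKRD1, ANKRD2 and CSRP3 have SEs of 0.85 to 0.97, and MYOZ1, MYOZ3, ACTN2 and ACTN3 have SEs of 0.11 to 0.13.

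The alpha-actinins cross-link the thin filaments of the Z-disc, and ACTN3 was the most abundant of the 9 genes. ACTN3 (ENSSSCG00000038323; Sscrofa11.1 chromosome 2, 5860393 to 5874124, minus strand) took 0.898% to 1.24% of all counts of a library. It ran from 2692 FPKM in Laiwu 3 over a median of 3155 to 3709 FPKM in Laiwu 1 within Laiwu, and from 2738 FPKM in Yorkshire 3 over a median of 3214 to 3667 FPKM in Yorkshire 6 within Yorkshire. The breeds overlapped almost wholly, and the lowest 3 libraries, Laiwu 3, Yorkshire 3 and Laiwu 5, were among the 4 in which ANKRD1 was highest. The log2 fold change was -0.05 ± 0.13 (SE; edgeR adjusted p = 0.972), and it was 0.0064 without Yorkshire 6.

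ACTN2 (ENSSSCG00000010144; chromosome 14, 54666623 to 54742778, minus strand), the alpha-actinin of all fibre types and the heart, averaged 304.5 ± 47.1 FPKM in Laiwu, against 297.6 ± 50.2 FPKM in Yorkshire (SD, n = 6 per breed). Its 3 highest libraries were Yorkshire 3 at 375.7, Laiwu 5 at 371.4 and Laiwu 3 at 354.0 FPKM, and its lowest was Yorkshire 4 at 247.2 FPKM. ACTN2 was the only one of the 9 genes with a fold change above 0, at a log2 value of 0.01 ± 0.13 (SE; edgeR adjusted p = 0.993) that turned negative in 5 of the 12 fits with 1 library left out.

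The myozenins differed from each other in level and in spread. MYOZ1 (ENSSSCG00000010304; chromosome 14, 76444557 to 76452799, minus strand), the main myozenin of fast fibres, averaged 1843 ± 118.9 FPKM in Laiwu, against 1991 ± 170.7 FPKM in Yorkshire (SD, n = 6 per breed). Its range was 1708 to 2042 FPKM in Laiwu and 1759 to 2177 FPKM in Yorkshire, and 3 of the 4 highest libraries were Yorkshire. This was the steadiest of the 9 genes, with a highest library 1.27 times the lowest, and its log2 fold change was -0.14 ± 0.11 (SE; edgeR adjusted p = 0.912). MYOZ3 (ENSSSCG00000035729; chromosome 2, 151635672 to 151650839, plus strand) was lower, at 268.1 to 373.6 FPKM in Laiwu and 312.8 to 411.4 FPKM in Yorkshire. The 4 highest libraries for MYOZ3 were all Yorkshire, the lowest was Laiwu 3, and the log2 fold change of -0.16 ± 0.13 (SE) had an edgeR adjusted p of 0.912. It was -0.10 without Laiwu 3, the smallest in size of 12 such fits, and -0.24 without Yorkshire 3, the largest.

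MYOZ2 (ENSSSCG00000052601; chromosome 8, 104577790 to 104609328, minus strand), the myozenin of slow fibres and the heart, stood far below the other 2 myozenins. It was at 11.4, 62.1, 35.8, 9.002, 42.6 and 32.0 FPKM in Laiwu 1 to 6, and at 41.6, 15.0, 53.6, 49.4, 50.0 and 32.0 FPKM in Yorkshire 1 to 6. Laiwu 4, Laiwu 1 and Yorkshire 2 were thus well below the other 9 libraries, whose lowest was 32.0 FPKM. Its log2 fold change was -0.34 ± 0.43 (SE; edgeR adjusted p = 0.922), and it was -0.15 without Laiwu 4, -0.17 without Laiwu 1 and -0.65 without Laiwu 2.

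The row described as LIM domain binding 3 (ENSSSCG00000010359; chromosome 14, 87661152 to 87689869, plus strand), a PDZ-LIM protein that binds alpha-actinin, was nearly level too, with a highest library 1.35 times the lowest. It averaged 977.0 ± 84.9 FPKM in Laiwu, against 1072 ± 98.3 FPKM in Yorkshire (SD, n = 6 per breed), with a log2 fold change of -0.16 ± 0.11 (SE; edgeR adjusted p = 0.912).

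TCAP (ENSSSCG00000017500; chromosome 12, 22651667 to 22653722, minus strand) encodes telethonin, which joins the ends of 2 titin molecules at the Z-disc and is a binding partner of the myozenins. It was at 415.1, 469.4, 539.7, 373.4, 580.8 and 293.6 FPKM in Laiwu 1 to 6, and at 444.9, 355.1, 891.1, 478.0, 1034 and 430.8 FPKM in Yorkshire 1 to 6. Yorkshire 5 and Yorkshire 3 were far above the rest, followed by Laiwu 5 and Laiwu 3, and the other 8 libraries lay between 293.6 and 478.0 FPKM. For TCAP the log2 fold change was -0.46 ± 0.26 (SE; edgeR adjusted p = 0.912), and it was -0.20 without Yorkshire 5 and -0.16 by limma voom with library quality weights.

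CSRP3 (ENSSSCG00000013354; chromosome 2, 40215353 to 40240616, plus strand) encodes muscle LIM protein, a Z-disc protein that binds alpha-actinin and telethonin. It was at 7.96, 44.4, 113.9, 2.23, 55.4 and 23.1 FPKM in Laiwu 1 to 6, and at 43.98, 4.09, 100.2, 45.5, 90.7 and 13.5 FPKM in Yorkshire 1 to 6. The highest library was 51.2 times the lowest, both of them Laiwu. For CSRP3 the log2 fold change was -0.29 ± 0.85 (SE; edgeR adjusted p = 0.976), from -0.89 without Laiwu 3 to 0.03 without Yorkshire 5, so that 1 library decides its sign.

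ANKRD1 (ENSSSCG00000010461; chromosome 14, 102603777 to 102612839, minus strand) encodes the cardiac ankyrin repeat protein, which binds titin and also acts in the nucleus. It was at 19.2, 10.97, 55.7, 15.3, 72.6 and 8.98 FPKM in Laiwu 1 to 6, and at 8.32, 8.90, 269.4, 11.4, 129.9 and 20.2 FPKM in Yorkshire 1 to 6. The values fell into a set of 4 libraries at 55.7 FPKM or more, 2 from each breed, and a set of 8 at 20.2 FPKM or less. The log2 fold change of -1.26 ± 0.94 (SE; edgeR adjusted p = 0.912) was the largest of the 9 genes in size. It was -0.34 without Yorkshire 3, -0.40 by limma on log2(FPKM + 1) and 0.37 by limma voom with library quality weights, which turned its direction.

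ANKRD2 (ENSSSCG00000010522; chromosome 14, 108944772 to 108958387, plus strand), the related ankyrin repeat gene of slow skeletal fibres, was at 4.04, 8.54, 28.2, 1.26, 36.2 and 8.17 FPKM in Laiwu 1 to 6. It was at 7.22, 2.40, 89.8, 6.95, 67.8 and 7.16 FPKM in Yorkshire 1 to 6. The same 4 libraries were highest as for ANKRD1, in the same order, and the highest of all 12 was 71.1 times the lowest. The 2 genes parted at the low end, where ANKRD2 was lowest in Laiwu 4, Yorkshire 2 and Laiwu 1 and ANKRD1 in Yorkshire 1, Yorkshire 2 and Laiwu 6. The log2 fold change of ANKRD2 was -1.07 ± 0.97 (SE; edgeR adjusted p = 0.918), and it was -0.46 without Yorkshire 3, -0.58 without Yorkshire 5, -0.56 by limma on log2(FPKM + 1) and -0.10 by limma voom with library quality weights.

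Ordered by mean level per length, ACTN3 at 3184 FPKM stood above MYOZ1 at 1917 FPKM and MYOZ1 above TCAP at 525.5 FPKM in 12 of 12 libraries, with ranges that did not touch. TCAP stood above MYOZ3, at a mean of 351.3 FPKM, in 11 of 12 libraries, and MYOZ3 above ACTN2, at 301.1 FPKM, in 9 of 12. ACTN2 stood above ANKRD1, at 52.6 FPKM, in 12 of 12. The ranges of ANKRD1, CSRP3, MYOZ2 and ANKRD2, at means of 52.6, 45.4, 36.2 and 22.3 FPKM, overlapped, and neighbours in that order changed places between libraries. ANKRD1 was above CSRP3 in 7 of 12 libraries, CSRP3 above MYOZ2 in 5 of 12 and MYOZ2 above ANKRD2 in 10 of 12.

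**Figure D3:**
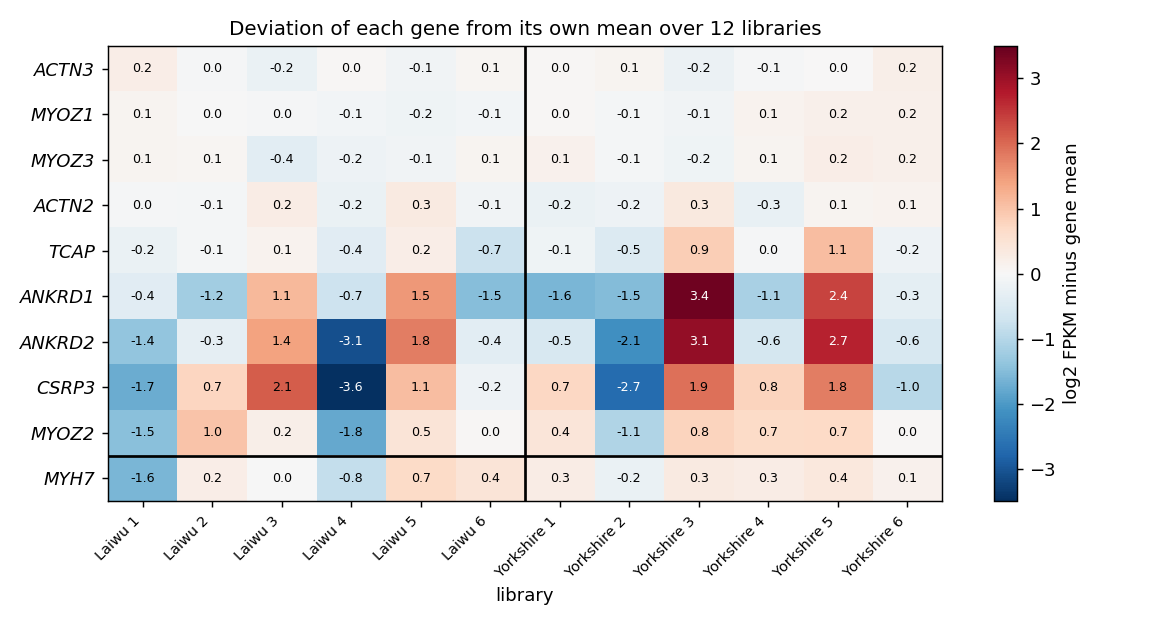
Log2 FPKM of each Z-disc gene, and of MYH7 below the line, minus that gene's own mean over 12 libraries (red, above the mean; blue, below it), for 6 Laiwu and then 6 Yorkshire libraries. TCAP, ANKRD1, ANKRD2 and CSRP3 are red together in Laiwu 3, Laiwu 5, Yorkshire 3 and Yorkshire 5, and ANKRD2, CSRP3, MYOZ2 and MYH7 are blue together in Laiwu 1, Laiwu 4 and Yorkshire 2.

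The 4 highest libraries were the same for ANKRD1, ANKRD2, TCAP and CSRP3, a set of libraries that was also highest for 346 of the 11205 tested genes (3.09%). ACTN2 had 3 of them among its 4 highest. ACTN3 and MYOZ3 each had 3 of these 4 libraries among their 4 lowest. The 4 libraries came in equal number from both breeds and carry the numbers 3 and 5 in each. Those numbers give no shared origin in the labels.

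These 4 libraries were looked at for other differences. The total count was 64570632 in Laiwu 3, 65412113 in Laiwu 5, 54961358 in Yorkshire 3 and 63131233 in Yorkshire 5, within the range of the others except for Yorkshire 3, the shallowest library. The rank correlation of deviations with gene length was 0.0836, 0.0810, 0.0576 and -0.429 in the same order. Laiwu 3, Laiwu 5 and Yorkshire 3 had the 3 lowest sums of skeletal fibre markers, at 47361, 49743 and 48047 FPKM, and the 3 lowest shares of counts in the 10 most abundant genes, at 26.8%, 27.4% and 25.3%. Yorkshire 5 did not share this, with 64056 FPKM and 30.9%. The sums are mostly ACTA1. NEB, on the same list, was at 694.5, 626.9 and 501.8 FPKM in Laiwu 3, Laiwu 5 and Yorkshire 3, and at 306.9 FPKM in Yorkshire 5. Macrophage markers (3 of 3 listed, all above 0) summed to 13.7 FPKM in Yorkshire 3, against 3.90 to 6.96 FPKM over Laiwu and 3.96 to 5.71 FPKM in the other Yorkshire libraries. Markers of regenerating or denervated fibres (5 of 5 listed) summed to 216.7 and 212.5 FPKM in Laiwu 3 and 5 within a Laiwu range of 165.1 to 316.3, and to 128.1 and 126.1 FPKM in Yorkshire 3 and 5 within a Yorkshire range of 126.1 to 248.3. The part of these measures in the result was not tested.

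ANKRD1, CSRP3, ACTN2 and MYOZ2 are also heart genes, and markers of heart muscle were looked up. Of 6 heart markers 5 were listed, NPPB not being analysed here, and NPPA reached at most 0.296 FPKM, MYBPC3 0.0852 FPKM and TNNI3 1.06 FPKM in any library. TNNT2, the cardiac troponin T gene, had a mean of 3.46 FPKM in Laiwu, against 6.32 FPKM in Yorkshire, and reached 15.2 FPKM. The list summed to 19.6 to 84.6 FPKM in Laiwu and 64.4 to 116.1 FPKM in Yorkshire, most of it from MYH6, a close copy of MYH7 whose reads may be divided between them. The part of these markers in the levels of the 4 genes was not tested. Smooth muscle and pericyte markers (5 of 5) summed to 62.8 to 100.1 FPKM in Laiwu and 61.9 to 111.5 FPKM in Yorkshire. Endothelial markers (4 of 4) summed to 22.8 to 36.6 FPKM in Laiwu and to 20.3 to 41.1 FPKM in Yorkshire.

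The markers of fat and its precursors were compared between breeds as well. Adipocyte markers (4 of 4) summed to 15.2 to 110.7 FPKM in Laiwu and 6.26 to 36.99 FPKM in Yorkshire, and those of fibro-adipogenic progenitors (3 of 3) to 93.3 to 171.6 FPKM in Laiwu and 89.3 to 110.2 FPKM in Yorkshire. Their part in the levels of Z-disc genes was not tested.

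Ratios of paralogs within a library do not depend on library scaling, and 0 of 3 differed between the breeds. The genes of each pair differ in length, so a ratio can still carry deviations that follow gene length, as in Yorkshire 5. Without Yorkshire 5 the log2 differences between breeds were -0.08, 0.34 and 0.21 for ACTN3 over ACTN2, MYOZ1 over MYOZ2 and ANKRD1 over ANKRD2. ACTN3 over ACTN2 ran from 7.61 over a median of 11.4 to 12.8 in Laiwu and from 7.29 over a median of 11.8 to 12.7 in Yorkshire. The lowest ratios were those of Yorkshire 3, Laiwu 3 and Laiwu 5. The mean log2 ratio was 3.38 ± 0.34 in Laiwu and 3.44 ± 0.31 in Yorkshire (SD, n = 6 per breed), a difference of -0.06 ± 0.19 (SE; exact permutation p = 0.797, two-sided, and 0.797 adjusted over 3 ratios). The sign of that difference turned without Laiwu 3 (0.03) and without Laiwu 5 (0.02).

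MYOZ1 over MYOZ2, the fast over the slow myozenin, ran from 30.7 over a median of 53.6 to 197.1 in Laiwu and from 32.8 over a median of 45.1 to 122.1 in Yorkshire. The highest ratios were those of Laiwu 4 at 197.1, Laiwu 1 at 179.4 and Yorkshire 2 at 122.1. The log2 difference between the breeds was 0.41 ± 0.54 (SE; exact permutation p = 0.450, two-sided, and 0.797 adjusted over 3 ratios). It was 0.11 without Laiwu 4, 0.14 without Laiwu 1 and 0.27 without Yorkshire 3, and 0.65 without Laiwu 2 and 0.64 without Yorkshire 2. ANKRD1 over ANKRD2 ran from 1.10 to 12.1 in Laiwu and from 1.15 to 3.71 in Yorkshire, and Laiwu 4 held the highest ratio. The log2 difference was 0.25 ± 0.59 (SE; exact permutation p = 0.706, two-sided, and 0.797 adjusted over 3 ratios). It was -0.19 without Laiwu 4. The smallest p that 924 regroupings of 12 libraries can give is 0.00216.

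**Figure D4:**
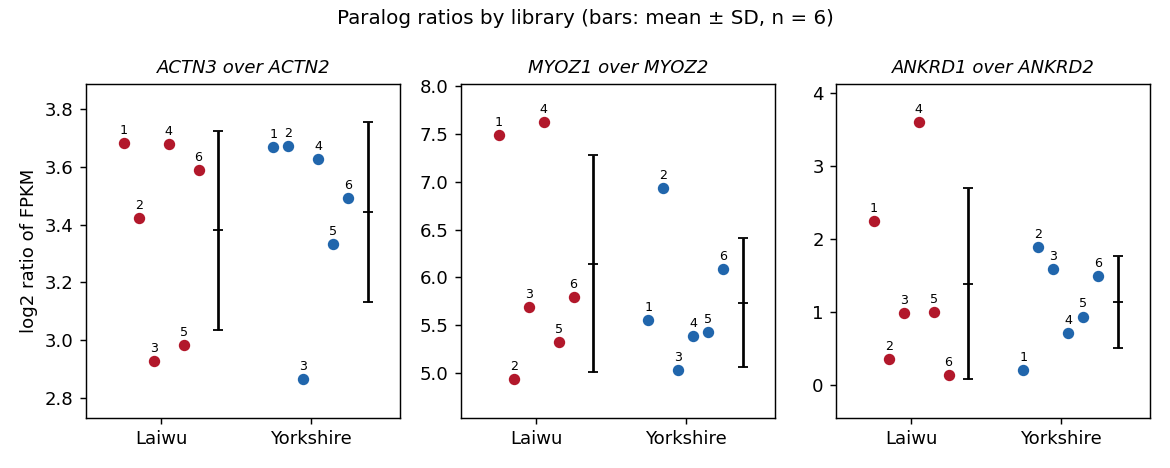
Log2 ratio of FPKM for 3 pairs of paralogs in 6 Laiwu and 6 Yorkshire libraries, with library numbers and the mean ± SD beside each breed. The breeds overlap in each pair, and Laiwu 1, Laiwu 4 and Yorkshire 2 have the highest ratios of MYOZ1 over MYOZ2.

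The level of MYH7, the slow myosin heavy chain, was compared with each of the 9 genes across libraries after removing breed means, and 0 of 9 relations passed an adjusted p under 0.05. MYH7 was at 275.6, 977.6, 835.7, 469.7, 1321 and 1141 FPKM in Laiwu 1 to 6, and at 1002, 714.3, 1034, 1005, 1079 and 923.3 FPKM in Yorkshire 1 to 6. Its lowest libraries were Laiwu 1, Laiwu 4 and Yorkshire 2, the same 3 as for MYOZ2, CSRP3 and ANKRD2, and 234 of the 11205 tested genes (2.09%) were lowest in these 3.

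MYOZ2 had the smallest adjusted p of the 9 relations, 0.0955 by Pearson's r and 0.0597 by Spearman's rho (permutation p = 0.0106 and 0.00663). Its values fall into 2 separate sets of libraries, the 3 lowest and the other 9, so no pooled coefficient with MYH7 is given for it. Over the 9 libraries r was 0.14 (permutation p = 0.796, adjusted 0.833), but the 3 left out were also the lowest in MYH7, so its range is narrower there. Within breeds r was 0.84 in Laiwu (exact permutation p = 0.0486, adjusted 0.219, n = 6) and 0.86 in Yorkshire (exact permutation p = 0.0389, adjusted 0.331, n = 6). The rho was 0.66 in Laiwu (exact permutation p = 0.175) and 0.71 in Yorkshire (exact permutation p = 0.136). These within-breed values include Laiwu 1 and 4 and Yorkshire 2. CSRP3 had an r of 0.62 (permutation p = 0.0512, adjusted 0.175) and a rho of 0.60 (permutation p = 0.0591, adjusted 0.177). Its r was 0.70 without Laiwu 1 and Laiwu 5, the 2 libraries farthest from the median of MYH7 in log2 CPM with breed means removed. Laiwu 4, among the 3 lowest in MYH7, was not left out there. Over the 9 libraries other than the 3 lowest r was -0.20 for CSRP3 (permutation p = 0.648, adjusted 0.833). The values of ANKRD1 and ANKRD2 also fall into 2 sets, the 4 highest libraries and the other 8, and over all 12 libraries neither passed, the smaller adjusted p being 0.117, by rho, for ANKRD2. Over the 8 libraries r was -0.60 for ANKRD1 (permutation p = 0.138, adjusted 0.414) and 0.60 for ANKRD2 (permutation p = 0.281, adjusted 0.430). The rho over these 8 was -0.69 for ANKRD1 (permutation p = 0.095, adjusted 0.230) and 0.83 for ANKRD2 (permutation p = 0.132, adjusted 0.238). The 8 libraries were chosen by the values of ANKRD1 and the 9 by those of MYOZ2. Permutation p over these subsets are therefore a description and not a test.

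ACTN3 and MYOZ1, both genes of fast fibres, had negative coefficients with MYH7 whose size depended on the libraries included. For ACTN3 r was -0.47 (permutation p = 0.109, adjusted 0.246) and rho -0.45 (permutation p = 0.137, adjusted 0.308), and r was -0.12 without Laiwu 1 and Laiwu 5. It was -0.15 without Laiwu 1, -0.62 without Yorkshire 3, and 0.40 over the 9 libraries other than the 3 lowest (permutation p = 0.194, adjusted 0.833), where the range of MYH7 is narrower. Over the 6 differences between libraries of equal number it was -0.94 (exact permutation p = 0.00556, adjusted 0.05, which is at the threshold and not under it), although the numbers are not known to pair the libraries. For MYOZ1 r was -0.36 (permutation p = 0.163, adjusted 0.293) and rho -0.35 (permutation p = 0.283, adjusted 0.509), and r was 0.13 without Laiwu 1 and Laiwu 5. Within breeds, r between MYOZ1 and MYH7 was -0.82 in Laiwu (exact permutation p = 0.0431, adjusted 0.219, n = 6) and 0.40 in Yorkshire (exact permutation p = 0.408, adjusted 0.593, n = 6). For MYOZ3, ACTN2 and TCAP r was -0.11, 0.22 and 0.18, with permutation p of 0.750, 0.515 and 0.503 (adjusted 0.750, 0.614 and 0.614), and rho was 0.04, 0.15 and 0.17, with permutation p of 0.902, 0.625 and 0.597 (adjusted 0.902, 0.804 and 0.804).

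**Figure D5:**
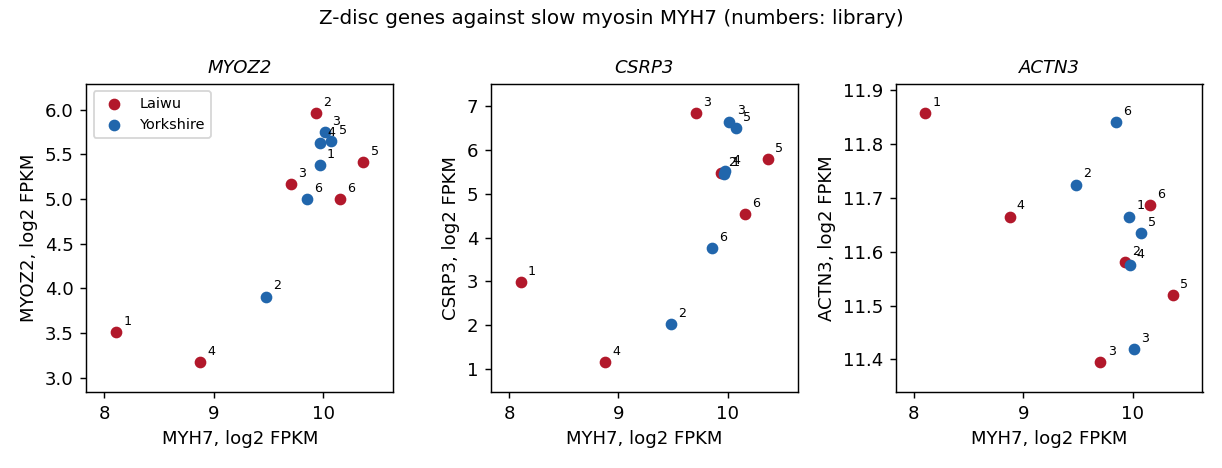
Log2 FPKM of MYOZ2, CSRP3 and ACTN3 against that of MYH7 in 6 Laiwu (red) and 6 Yorkshire (blue) libraries, breed means not removed. Laiwu 1, Laiwu 4 and Yorkshire 2 lie apart at the low end for MYOZ2 and are the lowest for CSRP3. Over the other 9 libraries, where the range of MYH7 is narrower, r is 0.14 for MYOZ2 and -0.20 for CSRP3. These r are of log2 CPM with breed means removed, not of the points as drawn.

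For each gene the 3 tested genes outside the set with the most similar pattern over 12 libraries were looked up, by Pearson's r of log2 CPM with breed means removed. Being the highest of 11205, these coefficients are large by construction and are given as a description. For ANKRD1 they were the unnamed ENSSSCG00000046945 at 0.98, RCAN1 at 0.97 and the ubiquitin-conjugating enzyme gene UBE2D1 at 0.97. RCAN1, which encodes an inhibitor of calcineurin, was at 13.3 and 23.6 FPKM in Laiwu 3 and 5 and at 39.6 and 26.3 FPKM in Yorkshire 3 and 5. In the other 8 libraries it was at 6.24 to 9.79 FPKM, so that its 4 highest libraries were those of ANKRD1, in the same order. Over those 8 libraries alone r with ANKRD1 was 0.83 for RCAN1, 0.91 for ENSSSCG00000046945 and 0.71 for UBE2D1. These genes were picked over all 12 libraries, the 8 included, so the values over the 8 are no separate support.

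For ANKRD2 the most alike were HOOK2, whose product tethers organelles to microtubules, at 0.975, the unnamed ENSSSCG00000016426 at 0.97 and the LIM domain gene LMCD1 at 0.96. LMCD1 ran from 3.32 FPKM in Laiwu 4 to 10.02 FPKM in Laiwu 5 within Laiwu, and from 3.36 FPKM in Yorkshire 2 to 18.7 FPKM in Yorkshire 3 within Yorkshire. It shared with ANKRD2 both the 4 highest and the 3 lowest libraries. For TCAP the most alike were PLPP1, a lipid phosphatase gene, at 0.97, the translation factor gene EIF1B at 0.96 and the unnamed ENSSSCG00000033786 at 0.96.

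Among the genes most like MYOZ2 were PDLIM1 at 0.96 and FBXO3 at 0.91. These coefficients pool Laiwu 1, Laiwu 4 and Yorkshire 2, which lie apart at the low end of MYOZ2, with the other 9 libraries. PDLIM1, which encodes a PDZ-LIM protein that binds alpha-actinin, was at 4.82 and 4.52 FPKM in Laiwu 1 and 4 and at 5.39 FPKM in Yorkshire 2, against 10.1 FPKM or more in each of the other 9 libraries. CSRP3 was most like ENSSSCG00000003006, described as a cytochrome P450 gene of family 2, at 0.94, ISOC1 at 0.94 and NMRAL1 at 0.94.

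ACTN3 was most like SPG7, a mitochondrial protease gene, at 0.96, MIB2 at 0.94 and the glycolytic gene GAPDH at 0.93. GAPDH had the same 3 lowest libraries as ACTN3, Laiwu 3, Laiwu 5 and Yorkshire 3, at 15007, 16256 and 16204 FPKM. ACTN2 was most like CHRNB1, a subunit gene of the muscle acetylcholine receptor, at 0.90, WIPI1, an autophagy gene, at 0.90 and FLII, an actin remodelling gene, at 0.89. MYOZ1 was most like HMGN3, RPL26L1 and MOB2, at 0.92, 0.91 and 0.91, and MYOZ3 most like RALY, NFYC and MTHFS, at 0.95, 0.95 and 0.94.

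Among other genes of the Z-disc and its partners, 0 passed the test in any of 5 lists. Of 18 tested scaffold and cross-linking partners 8 had a log2 fold change above 0 and 10 below, with a median of -0.09. Their most abundant members were DES, the intermediate filament desmin, at 1616 ± 181.0 FPKM in Laiwu, against 1865 ± 287.1 FPKM in Yorkshire, CRYAB, a small heat shock protein that protects desmin and titin, and NEB, the thin filament ruler nebulin, at 585.3 ± 77.8 FPKM in Laiwu, against 491.3 ± 100.9 FPKM in Yorkshire (SD, n = 6 per breed). CRYAB was highest in the same 4 libraries as ANKRD1, at 402.7 and 1100 FPKM in Laiwu 3 and 5 and at 1398 and 1720 FPKM in Yorkshire 3 and 5. It was at 212.8 to 379.8 FPKM in the other 8 libraries, and its log2 fold change was -0.65 ± 0.63 (SE; edgeR adjusted p = 0.918), or -0.07 without Yorkshire 5. NEB was lowest in Yorkshire 5, and its log2 fold change of 0.23 was 0.14 with that library left out.

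Of 9 tested PDZ-LIM and four-and-a-half LIM genes 2 were above 0 and 7 below, with a median of -0.12. PDLIM7 had the largest difference, at 318.3 ± 31.0 FPKM in Laiwu, against 412.9 ± 101.1 FPKM in Yorkshire (SD, n = 6 per breed), with a log2 fold change of -0.40 ± 0.16 (SE; edgeR adjusted p = 0.912). Without Yorkshire 5 the Yorkshire mean was 372.7 ± 25.9 FPKM (SD, n = 5) and the log2 fold change -0.23. PDLIM3 was at 565.7 ± 223.0 FPKM in Laiwu, against 547.5 ± 204.6 FPKM in Yorkshire, and FHL1 at 299.9 ± 56.8 FPKM in Laiwu, against 289.6 ± 11.1 FPKM in Yorkshire. PDLIM3 was highest in the same 4 libraries as ANKRD1. It was at 905.7 and 765.6 FPKM in Laiwu 3 and 5 and at 854.1 and 759.0 FPKM in Yorkshire 3 and 5. The next library was Laiwu 2 at 514.6 FPKM.

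Of 13 tested genes of the calcineurin and NFAT pathway, which myozenins restrain, 9 were above 0 and 4 below, with a median of 0.12. PPP3R1, the regulatory subunit of calcineurin, was at 50.1 ± 7.00 FPKM in Laiwu, against 50.5 ± 3.76 FPKM in Yorkshire, and the transcription factor gene MEF2A was at 43.5 ± 8.42 FPKM in Laiwu, against 37.1 ± 8.69 FPKM in Yorkshire (SD, n = 6 per breed). MEF2C, a related factor, was at 39.5 ± 5.51 FPKM in Laiwu, against 35.3 ± 6.27 FPKM in Yorkshire, or 37.8 ± 2.06 FPKM in Yorkshire without library 5 (SD, n = 5). RCAN1 had the lowest log2 fold change of the list, -0.50 ± 0.49 (SE; edgeR adjusted p = 0.918).

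Of 9 tested partners in titin-based stretch signalling 6 were above 0 and 3 below, with a median of 0.01. ANKRD23, the third gene of the family of ANKRD1 and ANKRD2, was far more abundant than either, at 913.0 ± 260.0 FPKM in Laiwu, against 920.3 ± 223.1 FPKM in Yorkshire (SD, n = 6 per breed). Its highest library was 1242 FPKM in Laiwu 3 and 1176 FPKM in Yorkshire 6, and its lowest 572.7 FPKM in Laiwu 6 and 622.9 FPKM in Yorkshire 4, so it did not share the wide spread of ANKRD1 and ANKRD2. CMYA5 was at 439.7 ± 121.1 FPKM in Laiwu, against 377.6 ± 135.9 FPKM in Yorkshire, and CAPN3, the muscle calpain that binds titin, at 264.0 ± 23.9 FPKM in Laiwu, against 235.8 ± 39.99 FPKM in Yorkshire.

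The last list held 9 targets and partners of YAP and TAZ, the coactivators of the Hippo pathway, of which ANKRD1 is a known target. Of these 5 were above 0 and 4 below, with a median of 0.06. AMOTL1 was at 33.02 ± 6.51 FPKM in Laiwu, against 31.5 ± 12.9 FPKM in Yorkshire, TEAD1 at 35.9 ± 9.47 FPKM in Laiwu, against 25.4 ± 9.95 FPKM in Yorkshire, and CCN1 at 13.0 ± 4.12 FPKM in Laiwu, against 15.0 ± 8.98 FPKM in Yorkshire (SD, n = 6 per breed). CCN1 was highest in Yorkshire 5 at 26.8 FPKM, and TEAD1 was lowest there, at 5.75 FPKM. The log2 fold change of TEAD1 was 0.47, or 0.27 without Yorkshire 5, that of AMOTL1 0.06, or -0.13 without it, and that of CCN1 -0.23, or 0.05 without it.

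Fibre type genes gave the setting for these values. Of 8 tested slow sarcomere genes 2 were above 0 and 6 below, with a median of -0.49 and 0 past the threshold, and of 10 tested fast sarcomere genes 4 were above 0 and 6 below, with a median of -0.09 and 0 past the threshold. The slow troponin gene TNNC1 was at 394.0 ± 171.8 FPKM in Laiwu, against 556.3 ± 181.5 FPKM in Yorkshire, and the slow myosin light chain gene MYL2 at 350.1 ± 180.9 FPKM in Laiwu, against 501.7 ± 192.4 FPKM in Yorkshire (SD, n = 6 per breed). Both had the same 3 lowest libraries as MYOZ2. The fast genes MYH4, TNNI2 and TNNT3 were at 7702 ± 2360, 6163 ± 812.4 and 5930 ± 972.9 FPKM in Laiwu and 7254 ± 1475, 7075 ± 1510 and 6567 ± 1617 FPKM in Yorkshire (SD, n = 6 per breed). TNNI2 and TNNT3 were highest in Yorkshire 5, at 10022 and 9594 FPKM, and their log2 fold changes of -0.23 and -0.18 were -0.08 and -0.02 without it. Those of TNNC1 and MYL2 were -0.53 and -0.55, or -0.33 and -0.32 without Yorkshire 5.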

How the data were processed

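RNA was measured in 6 Laiwu and 6 Yorkshire libraries of longissimus dorsi. Per the series' design text the authors aligned reads with HISAT2 2.2.1 to Sscrofa11.1. Further tools in the submitters' processing notes, with no step attached to them, are cutadapt 1.9, FastQC, edgeR, DESeq2 and StringTie 1.3.4d. Per the file headers the deposited table holds a raw count and an FPKM value per gene and library. The kit marks strand, but the sources do not say whether counting used it. No listed gene overlaps any of the 9 genes in position. Reads of paralogs alike in sequence may be divided between them.

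The 9 genes, lists and tests were chosen with earlier results of these data known. The 11205 genes whose mean FPKM reached 0.5 were tested with edgeR 4.0.16 (quasi-likelihood, TMM, robust, two-sided, Benjamini-Hochberg over all tested genes), checked on simulated counts. The SE is the size of a fold change divided by the square root of F. Paralog ratios were tested by exact permutation, and relations to MYH7 by 100000 permutations within breed on log2 CPM. The coefficients over 8 and 9 libraries were added after the values were seen, and their p-values are of subsets chosen by those values. limma 3.58.1, DESeq2 1.42.0, R 4.3.3, Python 3.11.15, scipy 1.17.1 and matplotlib 3.10.9 were used. DESeq2 gave no adjusted p for 10 genes.

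All 9 genes are named. Of each list the 3 most abundant tested genes are named, with the 3 genes most like each of the 9, where PDLIM1 and RCAN1, both also on a list, come in by likeness. For MYOZ2, 1 of the 3 is not reported here. Alternatives were other tests, scalings, filters and pseudocounts, a replicate block and leaving out each library.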

Additional observations from a re-analysis of the deposited data

Results flagged for a closer look

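A library was flagged when the gap to its neighbour, over the range of its breed, passed 0.625. By this rule no single library was flagged for the 9 Z-disc genes, the row described as LIM domain binding 3, MYH7 or the paralog ratios. The rule can miss 2 libraries that lie apart together. In Yorkshire 3 and 5 ANKRD1 was 269.4 and 129.9 FPKM, with the next at 20.2 FPKM, and TCAP 891.1 and 1034 FPKM, with the next at 478.0 FPKM. Of 122 breed groups of values checked, 6 had a flagged library, and chance gives about 1 in 20. In Laiwu, CRYAB was 1100 FPKM in Laiwu 5, with the next at 402.7 FPKM, and DES was 1955 FPKM in Laiwu 1, with the next at 1629 FPKM. In Yorkshire all 4 cases were in Yorkshire 5. PDLIM7 was 613.8 FPKM there with the next at 408.4 FPKM, and TNNI2 was 10022 FPKM with the next at 7126 FPKM. MEF2C was 23.1 FPKM there with the next lowest at 35.4 FPKM, and TEAD1 was 5.75 FPKM with the next lowest at 27.2 FPKM. The rank correlation of that library's deviations with gene length was -0.429, and its part in these values was not tested.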

How the results depend on the processing

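No alternative brought any of the 9 genes or any paralog ratio past the threshold. The count of called genes was 0 under 21 of 22 alternatives, including the replicate block, and 1 by DESeq2. The block was run although the shared numbers are not known to pair libraries. Deviations of same-numbered libraries correlated at -0.246 to 0.370. Of the Laiwu libraries only Laiwu 3 correlated best with its own number in Yorkshire. Of the Yorkshire libraries only Yorkshire 5 correlated best with its own number in Laiwu. With the block the log2 fold change was -0.41 for ANKRD1 and -0.57 for MYOZ2, and the ratio differences had adjusted p of 0.75.

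Directions turned as follows, and the causes were not tested. The log2 fold change of ACTN2 was -0.03 without Laiwu 3, -0.050 without Laiwu 5, -0.03 without Yorkshire 1, -0.00029 without Yorkshire 2 and -0.05 without Yorkshire 4 (leave-one-out range -0.05 to 0.057), that of ACTN3 0.0064 without Yorkshire 6 (range -0.12 to 0.0064), that of CSRP3 0.027 without Yorkshire 5 (range -0.89 to 0.027), and that of ANKRD1 0.37 by limma voom with library quality weights. The log2 ratio difference of ACTN3 over ACTN2 was 0.029 without Laiwu 3 and 0.02 without Laiwu 5 (leave-one-out range -0.18 to 0.029), and that of ANKRD1 over ANKRD2 was -0.19 without Laiwu 4 (range -0.19 to 0.50) and -0.22 as a difference of medians. Without Yorkshire 5, a setting chosen after seeing the data for the named genes of the lists, 4 of them turned, at log2 fold changes of 0.011 for PPP3R1, 0.031 for ANKRD23, -0.13 for AMOTL1 and 0.053 for CCN1.

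With breed means kept, 1 of 9 genes, MYOZ2, was related to MYH7 (permutation p = 0.00268, adjusted 0.0241), against 0 in the main test and in the other 16 alternatives. Coefficients with MYH7 that changed sign were those of MYOZ3 (0.042 by Spearman's rho, 0.032 with breed means kept, 0.40 without the 2 farthest libraries, 0.33 without Laiwu 1), MYOZ1 (0.13 without the 2 farthest libraries, 0.013 without Laiwu 1, leave-one-out range -0.53 to 0.013), ACTN2 (-0.0063 without Laiwu 5, -0.63 under the replicate block) and TCAP (-0.32 under the replicate block). That of ACTN3 was -0.94 under the block and -0.62 to -0.15 with 1 library left out. Each of the 9 genes had at least 163 counts in every library, and the part of depth in these results was not tested.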
